A study of Mus musculus with 30 samples.

Results

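Interferon-induced genes were followed in RNA of mouse cardiac myocytes through 34 genes whose symbols form a list of interferon-stimulated genes and their transcription factors. All 34 symbols were found among the 52550 genes of the count table, and 31 were abundant enough to be tested together with 15587 genes in all. Zbp1, Mx1 and Cxcl10 were too low to test, with 96, 39 and 124 reads over the 30 libraries. The libraries form 6 groups of 5, which pair each genotype with an age of 3 months, an age of 6 months with regular activity, and an age of 6 months with exercise. One genotype is wild type and the other, called heterozygote here, is Myh6-Cre:DspW/F. The heterozygotes model desmoplakin haploinsufficiency, a cause of arrhythmogenic cardiomyopathy, since desmoplakin (Dsp) anchors the desmosomes that hold cardiac myocytes together. The Myh6 promoter drives Cre in cardiac myocytes, and the labels leave unsaid whether wild-type mice carried it, so an effect of Cre cannot be told apart from one of the Dsp allele. The design text ties the exercised groups to 3 months and to endurance treadmill running, without spelling out whether the 3 months were the length of training or the time after it. The labels do not state that the replicates were separate animals, so p-values measure the spread between these libraries only, and no sex is given.

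Type I interferons signal through the receptor pair Ifnar1 and Ifnar2 and the kinases Jak1 and Tyk2, which bring a complex with Stat2 and Irf9 to interferon-stimulated response elements (ISRE). Type II interferon, Ifng, signals through Ifngr1, Ifngr2, Jak1 and Jak2 to gamma-activated sites (GAS), as in the promoter of Irf1, which then acts on further genes. The induced proteins sense viral RNA, block translation or replication of viruses, attach the ubiquitin-like protein Isg15 to others, or, as guanylate-binding and immunity-related GTPases, act at the membranes around intracellular microbes. In the heart such genes are known to respond in macrophages, endothelial cells and fibroblasts as well as in myocytes.

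The promoters of the members show both kinds of element. RefSeq promoter sequences on GRCm38.p6, which run from 250 bases before to 50 bases after a start, were matched for 25 of the 34 members. Mx2, Parp14, Gbp6, Rtp4, Dhx58, Oas2, Zbp1, Mx1 and Usp18 were not matched. The ISRE-like motif, GAAA followed by any 2 bases and a second GAAA and searched on both strands, lay in the window of 16 of 25 members (64%), against 1079 of 27025 genes (3.99%) in the same table. The GAS-like motif TTCNNNGAA, also searched on both strands, lay in that of 7 of 25 (28%) against 9.55%. The stretches below stand for the genes that the results turn on and for both kinds of element; each is written 5′ to 3′ along the gene with the motif letters in capitals.
Igtp, chr11:58199486-58199555, plus strand: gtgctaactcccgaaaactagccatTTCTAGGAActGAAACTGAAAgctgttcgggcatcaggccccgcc
Irf1, chr11:53769899-53769957, plus strand: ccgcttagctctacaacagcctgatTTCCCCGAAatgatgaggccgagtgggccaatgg
Gbp7, chr3:142530205-142530317, plus strand: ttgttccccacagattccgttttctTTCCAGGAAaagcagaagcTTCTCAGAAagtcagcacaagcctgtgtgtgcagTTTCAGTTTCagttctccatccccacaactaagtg
Isg15, chr4:156200850-156200921, minus strand: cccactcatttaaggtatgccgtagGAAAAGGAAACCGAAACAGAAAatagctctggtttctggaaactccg
Ifit1, chr19:34640760-34640838, plus strand: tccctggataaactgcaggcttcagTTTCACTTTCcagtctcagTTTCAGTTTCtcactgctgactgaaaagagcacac
The capitals of Igtp are a GAS-like match that begins 45 bases before the start and an ISRE-like match that begins 34 bases before it. Irf1 holds a GAS-like match 90 bases upstream and no ISRE-like match, and Gbp7 holds a pair of GAS-like matches (106 and 87 bases upstream) ahead of an ISRE-like match on the other strand (53 bases). Isg15 holds 3 overlapping ISRE-like matches, 78, 72 and 66 bases upstream, and Ifit1 holds its matches on the other strand, 104 and 85 bases upstream. Among other members the ISRE-like motif lay 30 and 24 bases upstream of Irgm1, 59 of Gbp2 and 120 of Rsad2, and the windows of Irf7, Irf9, Oasl2, Samd9l, Ifi44 and Xaf1 held neither motif. A match is a description of letters, not a shown binding site.

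Some facts of the libraries bear on every result. Total counts per library ran from 11.2 to 23.7, in units of 10⁶ counts, and transcripts of the mitochondrial genome took 8.90% to 46.9% of them. Of 23 spike-in entries, 3 had a value in every 3-month library and 0 in the exercised ones. With regular activity at 6 months, 11 to 18 had a value in wild types and 18 in every heterozygote. So neither age nor exercise can be told apart from these sets of libraries, and the 6-month genotypes were not fully alike in them. Dsp spanned 573 to 1126 CPM (counts per 10⁶ on TMM-scaled library sizes) in heterozygotes and 752 to 1299 CPM in wild type at 3 months, 581 to 680 and 636 to 1021 CPM at 6 months, and 705 to 939 and 928 to 1907 CPM with exercise. Reads outside any deleted part of the gene are counted too. The summed CPM of 11 myocyte genes was 73389 or more in every library, and the lymphocyte markers summed to at most 8.5 CPM, so the label of cardiac myocytes held while macrophage, endothelial and fibroblast markers were all present. Heterozygote 1 at 3 months and exercised wild type 1 stood apart for the members, as described with their values below, and exercised heterozygote 4 stood apart for macrophage (143 CPM summed), neutrophil (30.6) and fibroblast (771.5) markers. In 3 wild-type libraries (wild type 4 at 3 months, wild types 2 and 5 at 6 months) both Xist and Y-linked transcripts were present, and the results were also computed without them.

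The most abundant member by length was Igtp, an immunity-related GTPase (ENSMUSG00000078853, GRCm38 chromosome 11, 58199556 to 58207591), at a mean of 17.0 CPM per kilobase of exon over all libraries. Ifi35 followed at 4.85, Gbp2 at 3.91, Irgm1 at 3.73 and Bst2 at 3.44 CPM per kilobase, and Dhx58 was the lowest tested member at 0.174. All members together summed to between 115 and 644 CPM per library. Reads of the ligands were nearly absent: of 21 interferon genes none was abundant enough to test, Ifnb1 had 12 reads over the 30 libraries and Ifng had 1. In bulk RNA, fewer cells that express a gene and less of its RNA per cell cannot be told apart.

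**Figure D1:**
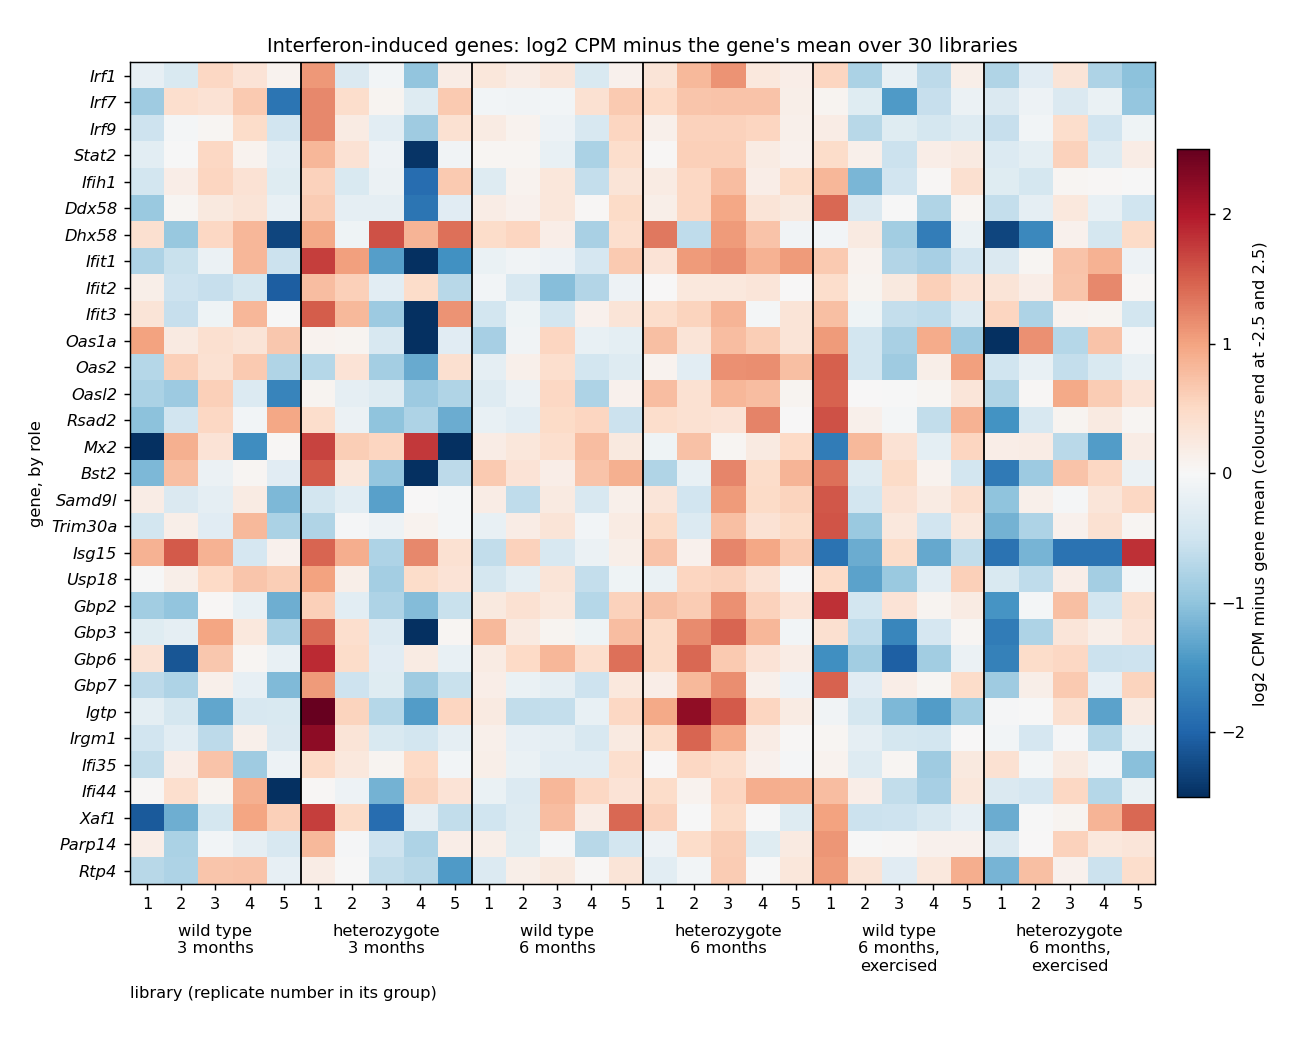
Heat map of the 31 tested members (one per line, grouped by role) in the 30 libraries (one per column, grouped by genotype, age and exercise), as log2 CPM minus each gene's mean over all libraries. All 31 members lay above their mean in heterozygote 3 at 6 months, and between 24 and 31 did in the 6-month heterozygotes, while heterozygote 1 at 3 months and exercised wild type 1 each hold the highest of the 30 values for 11 members, which are not the same genes.

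At 3 months the question was whether the members differed between genotypes in young hearts. The largest differences in mean were those of the GTPases Igtp and Irgm1, and 1 library held most of them. Igtp read 19.4, 17.0, 9.33, 17.5 and 17.8 CPM in the wild types and 285, 33.8, 14.1, 8.74 and 33.4 CPM in the heterozygotes. Irgm1, the GTPase that regulates this family (chromosome 11, 48861968 to 48871683), read 13.8, 16.0, 12.1, 21.1 and 14.9 CPM in wild type and 90.8, 24, 14.8, 13.9 and 16.3 CPM in heterozygotes. For both genes heterozygote 1 stood far above its group. Among the other 4 heterozygotes, the Igtp values of 33.8 and 33.4 CPM lay above all wild types. The value of 14.1 CPM lay among the wild types and that of 8.74 CPM below all of them. For Irgm1 the value of 24 CPM lay above all wild types, and those of 14.8, 13.9 and 16.3 CPM lay among them.

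None of the 31 tested members was called at 3 months (edgeR adjusted p under 0.05), beside 0.192% of all tested genes, and limma-voom called 0. The 4 members with the smallest p were Igtp, Ifit2, Irgm1 and Mx2. Their log2 fold changes, heterozygote over wild type, were 2.22 for Igtp (SE 0.659, edgeR adjusted p = 0.180), 0.83 for Ifit2 (SE 0.288, adjusted p = 0.239), 1.05 for Irgm1 (SE 0.385, adjusted p = 0.284) and 1.16 for Mx2 (SE 0.636, adjusted p = 0.506). The first 3 had an unadjusted p under 0.05, which 11% of all genes had. Of the members, 20 of 31 had a log2 fold change above 0 (49.7% of all genes did), with a median of 0.16 against a median of 0.00 over all genes. All 6 GTPases were above 0, and 2 of 5 antiviral effectors were.

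Without heterozygote 1, the log2 fold change of Igtp was 0.47 (edgeR adjusted p = 0.751) and that of Irgm1 0.14 (adjusted p = 0.876). Only 9 of 31 members were then above 0, with a median of -0.11. Without heterozygotes 1 and 2 the count was 6 of 31 and the median -0.24. With all libraries, 0 of 10 endothelial markers were above 0 (median -0.59, none called), with sums of 320 to 660 CPM in wild type and 291 to 321 CPM in heterozygotes. The fibroblast markers had 1 of 10 above 0 (median -0.12) and the macrophage markers 4 of 12 (median -0.10), and the part of any of them in the members' values was not tested. DESeq2 called Igtp with all libraries (log2 fold change 2.21, DESeq2 adjusted p = 0.0399). Oas1a, a sensor of double-stranded RNA, was the member whose groups did not overlap, with 0.646 to 1.18 CPM in wild type and 0 to 0.577 in heterozygotes (lower without overlap in 0.757% of all genes; log2 fold change -1.08, SE 0.661, edgeR adjusted p = 0.566).

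At 6 months with regular activity most members lay higher in heterozygotes, each by less than the test could call. Of the 31, 27 had a log2 fold change above 0, against 49.5% of all genes, and the median was 0.47 against 0.00 over all genes. None was called by edgeR, beside 0.135% of all genes, or by DESeq2 or limma-voom, and 3 had an unadjusted p under 0.05, beside 8.79% of all genes. All 4 transcription factors, all 3 tested sensors, both genes of the Isg15 system and all 6 IFIT and OAS genes were above 0, the last with a median of 0.71. Mx2, Bst2, Gbp6 and Xaf1 were below 0, the lowest at -0.32.

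Ifit2, which binds viral RNA and restrains translation (chromosome 19, 34550694 to 34576419), was the member whose groups did not overlap at 6 months. It read 6.34, 5.02, 3.14, 3.97 and 6.06 CPM in wild type and 6.73, 7.96, 8.04, 8.21 and 6.71 CPM in heterozygotes. Every heterozygote lay above every wild type, a pattern that 1.86% of all genes had in this direction. The log2 fold change was 0.62 (SE 0.283, edgeR adjusted p = 0.535).

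Igtp read 27.1, 15.1, 15.3, 20.1 and 33.2 CPM in the 6-month wild types and 44.5, 108, 67.3, 33.4 and 26.8 CPM in the heterozygotes. Heterozygotes 1, 2, 3 and 4 lay above all wild types, and heterozygote 5 lay among them. The log2 fold change was 1.34 (SE 0.639, edgeR adjusted p = 0.561), with means of 56 ± 33 and 22.2 ± 7.87 CPM (SD, n = 5). Irgm1 read 21.0, 16.8, 16.4, 14.5 and 22.6 CPM in wild type and 26.6, 52.5, 36.6, 21.9 and 19.5 CPM in heterozygotes, with a log2 fold change of 0.79 (SE 0.380, edgeR adjusted p = 0.565). Its 2 highest values came from the same libraries as those of Igtp, heterozygotes 2 and 3. Oas2, which makes the 2-5A messenger that activates RNase L, read 3.37, 4.33, 5.30, 2.85 and 3.15 CPM in wild type and 4.23, 3.27, 8.93, 9.05 and 6.71 CPM in heterozygotes, with a log2 fold change of 0.76 (SE 0.386, edgeR adjusted p = 0.594).

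Markers of other cell types moved the same way between these groups. The macrophage markers summed to 22.4 to 42.2 CPM in wild type and 60.2 to 123 CPM in heterozygotes, and 12 of 12 tested macrophage genes were above 0. The fibroblast markers summed to 183 to 213 and 347 to 515 CPM (10 of 10 above 0), and the endothelial markers to 393 to 573 and 431 to 900 CPM (10 of 10). None of these markers was called, no macrophage, endothelial or fibroblast marker was at 0 in all libraries, and their part in the members' difference was not tested. Heterozygote 3, which had all 31 members above their mean, also had the highest macrophage, endothelial and fibroblast sums of its group (123, 900 and 515 CPM). When 1 library was left out at a time, between 26 and 29 members stayed above 0 and the median stayed between 0.34 and 0.58.

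**Figure D2:**
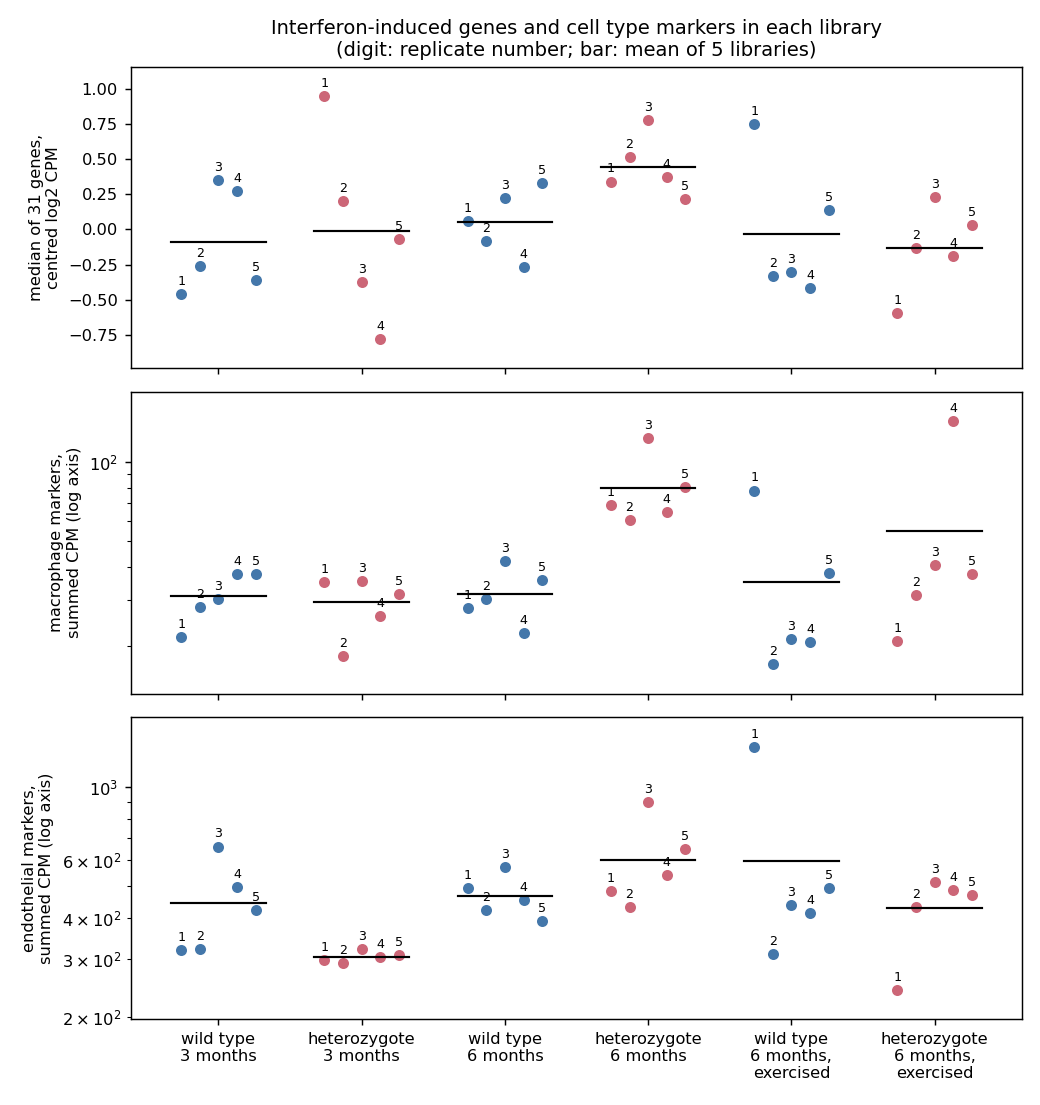
Per library: the median over the 31 tested members of log2 CPM centred on each gene's mean, the summed CPM of the macrophage markers and that of the endothelial markers, by group, with replicate numbers as digits and bars at the group mean. The 6-month heterozygotes lie between 0.21 and 0.78 for the members and at 60.2 CPM or more for the macrophage markers, exercised heterozygote 4 has the highest macrophage sum (143 CPM) with a member median of -0.19, and heterozygote 1 at 3 months has the highest member median (0.95) with a macrophage sum of 35.2 CPM.

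Among exercised mice the members did not lie higher in heterozygotes by edgeR, whereas by limma-voom most of them did. By edgeR the count above 0 was 11 of 31, against 48.6% of all genes, with a median of -0.14 against -0.01 over all genes. None of the members was called by edgeR, beside 0.404% of all genes, or by DESeq2 or limma-voom. The 4 with the smallest p were Oas2 (log2 fold change -0.90, SE 0.397, edgeR adjusted p = 0.428), Rsad2 (-0.79, SE 0.411, adjusted p = 0.553), Gbp6 (0.86, SE 0.483, adjusted p = 0.605) and Trim30a (-0.58, SE 0.365, adjusted p = 0.667). Oas2 had the only unadjusted p under 0.05 among them, which 9.78% of all genes had.

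Exercised wild type 1 weighed on this comparison. Oas2 read 11.3, 2.84, 2.10, 4.37 and 8.17 CPM in exercised wild type and 2.76, 3.46, 2.59, 3.02 and 3.47 CPM in exercised heterozygotes. Wild types 1 and 5 lay high, and the other 3 wild types surrounded the narrow range of the heterozygotes. Rsad2, the antiviral enzyme viperin, read 21.4, 7.70, 6.80, 4.58 and 12.9 against 2.43, 5.32, 7.34, 8.22 and 7.24 CPM, again with wild type 1 on top. Without wild type 1, 19 of 31 members were above 0 and the median was 0.07.

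With exercise in wild type, 1 member was called out of 31, beside 9.69% of all genes called in either direction and 5.05% called lower. Gbp6, a guanylate-binding protein (chromosome 5, 105270702 to 105293698), read 3.72, 4.62, 5.81, 4.38 and 8.53 CPM in wild types with regular activity and 1.04, 1.72, 0.699, 1.71 and 2.90 CPM in exercised ones. The groups did not overlap, as in 5.58% of all genes in this direction, and Gbp6 fell 3.36-fold with exercise. Group means were 5.41 ± 1.90 and 1.61 ± 0.843 CPM (SD over 5 libraries each), and the edgeR adjusted p was 0.0168 at a log2 fold change of -1.75 (SE 0.477). The call was lost without wild type 5 with regular activity (edgeR adjusted p = 0.0546) or without exercised wild type 3 (adjusted p = 0.0517), and without the wild types that held both Xist and Y-linked transcripts (adjusted p = 0.115). Of its exon bases 29% are shared with the annotated gene Gm43302, and Gbp10 is a near copy, so its reads may be divided among them. Gbp10 went the other way between these groups, with means of 3.31 CPM with regular activity and 7.34 CPM with exercise. Whether the fall of Gbp6 reflects a different division of reads was not tested.

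Ifit2 went the other way in wild type. Its values of 6.34, 5.02, 3.14, 3.97 and 6.06 CPM with regular activity stood against 9.09, 6.99, 7.88, 10.1 and 8.55 CPM with exercise, without overlap (5.04% of all genes in this direction). The log2 fold change of 0.80 missed the threshold (SE 0.284, edgeR adjusted p = 0.0725), and DESeq2 called it (adjusted p = 0.0296). Parp14, an ADP-ribosyltransferase (edgeR log2 fold change 0.58 with SE 0.260, adjusted p = 0.168), and Samd9l, a restriction factor (0.64, SE 0.329, adjusted p = 0.245), came next. Both had their highest exercised value in wild type 1, at 28.1 and 14.9 CPM, and without it their log2 fold changes were 0.30 and 0.23. As a whole the members had no common direction, with 15 of 31 above 0 (50.7% of all genes) and a median of -0.01 against 0.01 over all genes.

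With exercise in heterozygotes, 29 of 31 members had a log2 fold change below 0, against 49.6% of all genes above 0, and the median was -0.57 against 0.00 over all genes. Xaf1, a pro-apoptotic zinc-finger protein, and Ifit2 were above 0, at 0.30 and 0.38. The 6-month heterozygotes with regular activity also form one side of the genotype comparison at 6 months, so these comparisons share those 5 libraries and are no independent support for each other. One member was called, Irf1, beside 8.82% of all genes called in either direction and 3.48% called lower. All 4 transcription factors, all 3 sensors, all 5 tested effectors and all 6 GTPases were below 0, the GTPases with a median of -0.92.

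Irf1, the interferon-gamma-responsive transcription factor whose GAS-like promoter stretch is printed above (chromosome 11, 53770014 to 53778374), fell 2.02-fold. It read 12.1, 16.8, 21.0, 11.5 and 10.8 CPM in heterozygotes with regular activity and 5.61, 7.81, 12, 5.56 and 4.65 CPM in exercised heterozygotes. Exercised heterozygote 3 overlapped the other group and the other 4 lay below all of it. Group means were 14.4 ± 4.37 and 7.13 ± 2.97 CPM (SD over 5 libraries each), and the edgeR adjusted p was 0.0367 at a log2 fold change of -1.02 (SE 0.311). The call was lost without heterozygote 2 or 3 with regular activity (edgeR adjusted p = 0.0816 and 0.118) and without exercised heterozygote 1, 2, 4 or 5 (adjusted p = 0.0799, 0.0592, 0.0818 and 0.0973).

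Irf7, which amplifies type I interferon production, was separated between these groups without passing the test. It read 8.0, 9.11, 9.31, 9.32 and 6.19 CPM with regular activity and 4.35, 5.12, 4.34, 5.03 and 2.81 CPM with exercise, a separation that 4.02% of all genes showed in this direction. Its log2 fold change was -0.95 (SE 0.331, edgeR adjusted p = 0.0685). Irgm1 was also separated, at 26.6, 52.5, 36.6, 21.9 and 19.5 against 18.3, 14.4, 18.7, 11.7 and 17.0 CPM (edgeR log2 fold change -0.97 with SE 0.385, adjusted p = 0.120). So was Ifih1, the RNA sensor MDA5, at 6.35, 7.88, 9.43, 6.20 and 7.65 against 4.44, 4.01, 5.73, 5.62 and 5.47 CPM (edgeR log2 fold change -0.57 with SE 0.331, adjusted p = 0.329). Oas2 overlapped between the groups and had a log2 fold change of -1.07 (SE 0.395, edgeR adjusted p = 0.0878).

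Other tests called more of these genes. A fit restricted to both heterozygote groups called Irf1, Irf7 (edgeR adjusted p = 0.00917), Oas2 (adjusted p = 0.0283) and Irgm1 (adjusted p = 0.0353). DESeq2 called Irf1, Irf7 and Oas2, and limma-voom called these 3 and Isg15. Isg15, the ubiquitin-like modifier, had 13, 8, 15, 18 and 9 reads in heterozygotes with regular activity and 0, 1, 0, 0 and 18 reads in exercised ones, with a log2 fold change of -1.06 (SE 0.859, edgeR adjusted p = 0.529). The 18 reads all came from exercised heterozygote 5, and without that library the edgeR adjusted p was 0.00675. Leaving out the library that goes against the difference lowers the p-value by itself, so this value is no support for a fall of Isg15. Markers of other cells lay lower too, with 0 of 12 macrophage genes and 1 of 10 endothelial genes above 0 and none called. The macrophage sum spanned 60.2 to 123 CPM with regular activity and 20.9 to 40.8 CPM with exercise apart from heterozygote 4 (143 CPM), and the part of these cells in the members' values was not tested.

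**Figure D3:**
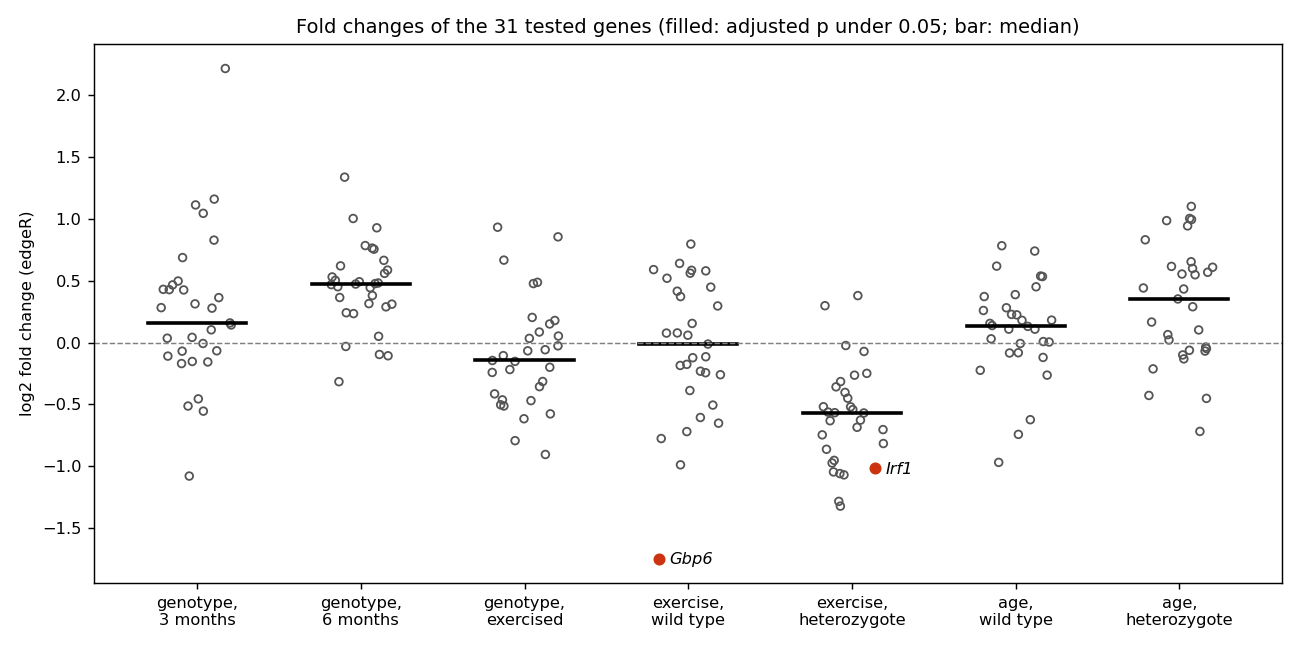
Log2 fold changes of the 31 tested members (points) in the 7 comparisons of groups, with filled points for members called by edgeR and a bar at the median. The medians are 0.47 for genotype at 6 months and -0.57 for exercise in heterozygotes, and the only filled points are Gbp6 for exercise in wild type and Irf1 for exercise in heterozygotes.

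Whether the exercise response differed between genotypes was tested directly as an interaction. No member was called by edgeR, beside 0.0128% of all genes, or by DESeq2 or limma-voom, and 3 had an unadjusted p under 0.05, beside 4.91% of all genes. The difference of both responses was below 0 for 29 of 31 members (51.3% of all genes were above 0), with a median of -0.56 against 0.01 over all genes. The 4 members with the smallest p were Oas2 (difference of log2 fold changes -1.66, SE 0.553, unadjusted p = 0.00519, edgeR adjusted p = 0.818), Samd9l (-1.04, SE 0.466, adjusted p = 0.982), Rsad2 (-1.27, SE 0.574, adjusted p = 0.985) and Gbp2 (-1.12, SE 0.558, adjusted p = 0.999). For all 4 genes exercised wild type 1 held the highest value of the 30 libraries, at 11.3, 14.9, 21.4 and 30.7 CPM. When 1 library was left out at a time, 2 or 3 members stayed above 0 and the median stayed between -0.74 and -0.41. The interaction uses the same 6-month heterozygotes as the comparisons above.

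With age from 3 to 6 months edgeR, DESeq2 and limma-voom called no member in either genotype, beside 0.86% of all genes called by edgeR in wild type and 3.43% in heterozygotes. In wild type 22 of 31 members were above 0 (51.6% of all genes) with a median of 0.14 against 0.01, and none had an unadjusted p under 0.05, against 12.2% of all genes. Gbp2 had the smallest p there (log2 fold change 0.78, SE 0.402, edgeR adjusted p = 0.434), followed by Usp18, which removes Isg15 from proteins (-0.62, SE 0.370, adjusted p = 0.518), Gbp6 (0.74, SE 0.456, adjusted p = 0.537) and Oas1a (-0.74, SE 0.639, adjusted p = 0.693).

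In heterozygotes 21 of 31 members were above 0 with age (47.8% of all genes), with a median of 0.35 against -0.02, and 5 had an unadjusted p under 0.05, against 19.6% of all genes. Oasl2, a homologue of the OAS enzymes, read 3.46, 2.84, 2.65, 1.72 and 1.92 CPM at 3 months and 5.76, 4.33, 5.99, 5.70 and 3.50 CPM at 6 months. These groups did not overlap, and the same held for Oas1a (4.40% of all genes in this direction). The log2 fold change of Oasl2 was 1.00 (SE 0.365, edgeR adjusted p = 0.115). It was followed by Oas2 (0.99, SE 0.393, adjusted p = 0.151), Samd9l (0.83, SE 0.334, adjusted p = 0.154) and Gbp2 (1.00, SE 0.399, adjusted p = 0.154).

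The age difference of Irgm1 turned on heterozygote 1 at 3 months. With it the log2 fold change was -0.04 (edgeR adjusted p = 0.978), and without it Irgm1 was called at 0.87 (adjusted p = 0.0324). Without heterozygotes 1 and 2, Irgm1 was called at 1.07 (edgeR adjusted p = 0.0125) and Ifit1 at 2.89 (adjusted p = 0.000940). That removal was chosen after seeing the data and took out the highest 3-month heterozygote values of both genes. It raises the difference by itself, so these calls are no support for a rise with age. Ifit1 read 9.65, 5.83, 1.01, 0.275 and 0.918 CPM in the 3-month heterozygotes. With all libraries the log2 fold change of Ifit1 was 0.60 (edgeR adjusted p = 0.580). With all libraries, edgeR called 4 of 12 macrophage, 5 of 10 fibroblast and 3 of 10 endothelial markers higher with age in heterozygotes, beside 1.46% of all genes. Every fibroblast and endothelial marker lay above 0, as did every macrophage marker but Ptprc (log2 fold change -0.26). The part of these markers in the members' values was not tested. For the interaction of genotype with age edgeR, DESeq2 and limma-voom called 0 members (edgeR 0% of all genes), and 1 had an unadjusted p under 0.05, beside 8.04% of all genes. By edgeR this interaction had 20 of 31 above 0 (46.4% of all genes) with a median of 0.33 against -0.03. By limma-voom most members lay below 0. The smallest p by edgeR were those of Oas2 (1.21, SE 0.553, edgeR adjusted p = 0.596), Oas1a (1.84, SE 0.915, adjusted p = 0.623), Rsad2 (1.03, SE 0.575, adjusted p = 0.667) and Samd9l (0.70, SE 0.470, adjusted p = 0.729).

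Heterozygote 1 at 3 months and exercised wild type 1 each held the highest of the 30 values for 11 members, and these were different members. In heterozygote 1 they were Igtp, Irgm1, Irf7, Irf9, Stat2, Ifit1, Ifit3, Bst2, Usp18, Gbp6 and Xaf1. Igtp and Irgm1 alone made up 58.3% of the summed CPM of all members there, 43.8% in heterozygote 2 at 6 months and 11.1% to 30.1% in the other 28 libraries. The related GTPases Irgm2 and Iigp1 stood at 132 and 174 CPM there against at most 74.3 and 91.8 in the 28 libraries other than heterozygote 1 and exercised wild type 1. Its macrophage and endothelial sums of 35.2 and 299 CPM lay within those of the other 3-month heterozygotes (18.4 to 35.3 and 291 to 321 CPM), and its lymphocyte markers summed to 0.615 CPM. Its fibroblast sum of 193 CPM lay above the 113 to 161 CPM of the other 3-month heterozygotes and within the wild types' 124 to 211 CPM. The part of these markers in its member values was not tested.

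In exercised wild type 1 the highest values were those of Gbp2, Parp14, Rsad2, Gbp7, Ddx58, Samd9l, Oas2, Trim30a, Oasl2, Ifih1 and Rtp4. Ddx58, the RNA sensor RIG-I, read 18 CPM there against at most 13 in the 28 other libraries, and Trim30a read 10.2 against at most 5.99. The members highest in heterozygote 1 at 3 months were mixed in it. Igtp at 21.8 and Irgm1 at 19.99 CPM lay near their means over all libraries on the log2 scale (-0.08 and 0.06 from them) and Gbp6 at 1.04 CPM lay lower (-1.53), while Bst2 at 6.87 CPM was the second highest of all libraries and Xaf1 at 9.23 CPM the highest of its group. Isg15 had no read there. The endothelial markers summed to 1329 CPM in this library against 312 to 492 CPM in the other exercised wild types, the macrophage markers to 77.9 CPM and the pericyte markers to 1525 CPM, and its mitochondrial share was 46.9%, the highest of all. The part of these in the members' values was not tested.

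**Figure D4:**
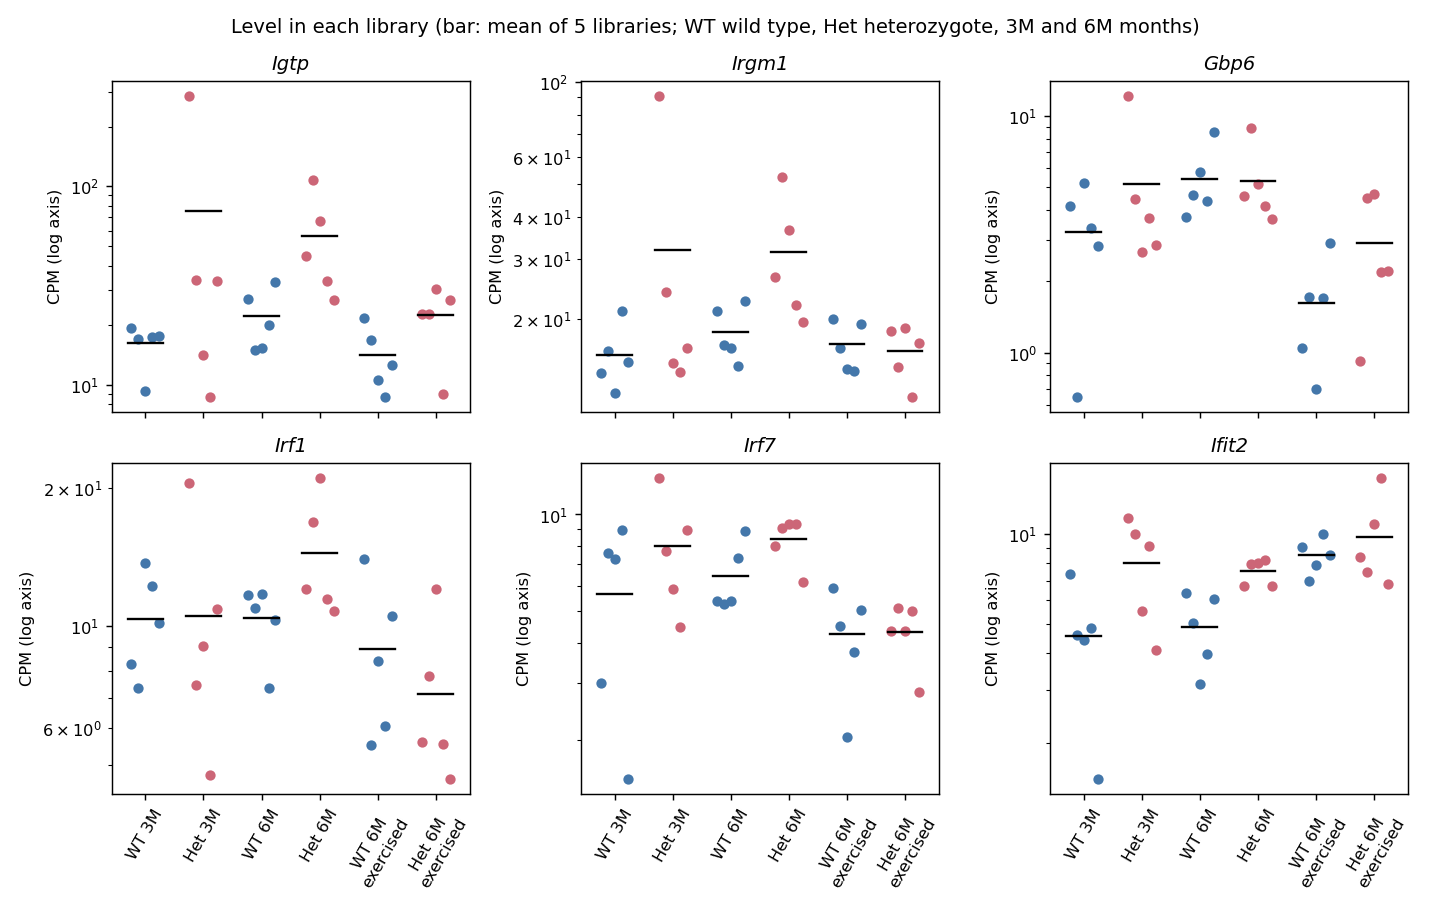
CPM per library (logarithmic axis) of Igtp, Irgm1, Gbp6, Irf1, Irf7 and Ifit2 in the 6 groups of 5 libraries, with bars at the group means. Heterozygote 1 at 3 months stands alone at 285 CPM for Igtp and 90.8 CPM for Irgm1, Gbp6 separates exercised from regular-activity wild types, and Irf7 separates exercised from regular-activity heterozygotes at 6 months.

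The rest of the pathway was described from lists of its own. Beside the calls below, edgeR called 9.69% of all genes with exercise in wild type and 8.82% in heterozygotes. Between the genotypes after exercise it called 0.404%. Of 9 receptor and kinase genes tested, Jak1 rose with exercise in wild type (log2 fold change 0.47, edgeR adjusted p = 0.0135) and Ifngr2 fell (-0.45, adjusted p = 0.0289). Jak1 also differed between the genotypes after exercise. It read 177, 193, 203, 229 and 203 CPM in exercised wild type and 140, 131, 120, 114 and 154 CPM in exercised heterozygotes, without overlap (log2 fold change -0.61, SE 0.124, edgeR adjusted p = 0.0140). That call was lost without exercised wild type 4 (edgeR adjusted p = 0.0613) or heterozygote 4 (adjusted p = 0.0647), and the rise of Jak1 in wild type without wild type 4 (adjusted p = 0.0603) or 5 (0.0532) with regular activity. No gene of this list was called for genotype at 3 or 6 months.

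Among 10 restraining genes tested, Socs3, the feedback inhibitor of cytokine receptors, fell with exercise in both genotypes. It read 28.3, 63.8, 28.8, 25.4 and 42.1 CPM in wild type with regular activity and 14.2, 8.35, 11.6, 4.00 and 19.1 CPM with exercise (log2 fold change -1.73, edgeR adjusted p = 0.00908). In heterozygotes it read 67.8, 39.9, 24.4, 42.1 and 38.8 against 5.78, 19.2, 14.8, 16.9 and 16.5 CPM (log2 fold change -1.54, edgeR adjusted p = 0.0204). Neither pair of groups overlapped. Without heterozygote 1 with regular activity the second call was lost (edgeR adjusted p = 0.0626), as was the first without the wild types that held both Xist and Y-linked transcripts (adjusted p = 0.106). Irf2, the antagonist of Irf1, rose with exercise in wild type (log2 fold change 0.87, edgeR adjusted p = 0.00380), where Rnaseh2c fell (-0.76, adjusted p = 0.0239). In heterozygotes Pias1, a SUMO ligase, rose with exercise (0.51, edgeR adjusted p = 0.00247) and Rnaseh2a, a subunit of ribonuclease H2, fell (-0.83, adjusted p = 0.0146).

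Of 13 upstream sensing genes tested, Tlr3, a receptor of double-stranded RNA, rose with exercise in wild type (log2 fold change 0.83, edgeR adjusted p = 0.00643) and Irf3 fell with exercise in heterozygotes (-0.35, adjusted p = 0.0225). A wider list of 81 interferon-induced genes outside the members, 66 of them tested, was described in the same way. At 6 months 63 of 66 were above 0 in heterozygotes with a median of 0.49 (49.5% of all genes were above 0), and 0 were called beside 0.135% of all genes, the smallest p being in Parp10 (0.59, edgeR adjusted p = 0.368) and Eif2ak2 (0.55, adjusted p = 0.416). With exercise in heterozygotes 10 of 66 were above 0 with a median of -0.35 (49.6% of all genes above 0). Called there were 4 lower and 1 higher of the 66, a share below the 8.82% of all genes called in either direction. Parp10 (-0.81, edgeR adjusted p = 0.0133), the immunoproteasome subunit Psmb9 (-1.34, adjusted p = 0.0277), Rnf213 (-0.59, adjusted p = 0.0340) and Ifi27 (-0.86, adjusted p = 0.0349) fell there, and Tor1aip1 rose (0.43, adjusted p = 0.0285). With exercise in wild type Eif2ak2, the kinase PKR, rose (0.81, edgeR adjusted p = 0.0132), where 9.69% of all genes were called in either direction.

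With age Ifi203 (1.31, edgeR adjusted p = 0.00465), Ifitm2 (1.52, adjusted p = 0.0100) and Lgals9 (1.29, adjusted p = 0.0388) of the wider list rose in heterozygotes, and Trim12c (0.95, adjusted p = 0.0388) rose in wild type. Over all genes, 3.43% were called with age in heterozygotes and 0.86% in wild type. Of all these calls, Tlr3, Irf2, Pias1, Ifi203 and the fall of Socs3 in wild type held whichever single library was left out, with highest edgeR adjusted p of 0.0329, 0.0155, 0.0239, 0.0356 and 0.0350. Ifitm2 was lost without heterozygote 3 at 6 months (edgeR adjusted p = 0.0501), Eif2ak2 without exercised wild type 4 (0.0510), Rnaseh2a without heterozygote 2 with regular activity (0.0545) and Parp10 without heterozygote 2 (0.05004) or 3 (0.0502) with regular activity. Ifngr2, Rnaseh2c, Irf3, Psmb9, Rnf213, Ifi27, Tor1aip1, Lgals9 and Trim12c were each lost without any of 4 to 8 of their 10 libraries.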

How the data were processed

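Per the labels' protocols, the miRNAeasy mini kit gave total RNA of the myocytes, and paired-end, strand-specific TruSeq libraries followed after ribosomal depletion. Trim Galore, HISAT2 and featureCounts with the build mm10 were used per the submitters' processing notes, which give no versions. The authors deposited raw gene counts of all 30 libraries as 1 table. The annotation and strand setting are not given in the sources used here, so near copies (Ifit3 with Ifit3b, Gbp6 with Gbp10, Oas1a with Oas1g, Trim30a with its family) and overlapping genes can share reads. Igtp shares 8.01% of its exon bases with Irgm2, and Ifi35 16.8% with an antisense gene. The 23 spike-in entries were left out.

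Members were taken by symbol, and the members and all lists were chosen with earlier results of these data known. One gene of the pathway lists is not reported here and was left out of their counts. After filterByExpr over the 6 groups and TMM scaling, edgeR 4.0.16 (with R 4.3.3 and limma 3.58.1) ran its robust quasi-likelihood test on all 30 libraries at 24 residual degrees of freedom. Benjamini-Hochberg adjustment ran over 15587 genes in each of 9 comparisons, and an adjusted p under 0.05 made a call. CPM use TMM-scaled sizes, log2 CPM a prior count of 2, and SE is the log2 fold change divided by the square root of F. n is 5 libraries per group. Named were all members by level, called members or else the 4 with the smallest p in each comparison, and called genes of the pathway lists; other members were chosen for their values. Positions and exon lengths are from GENCODE M21 (GRCm38). Promoters are RefSeq's. The test was checked on simulated counts. Alternatives were DESeq2 size factors, no low-count filter, a replicate block, DESeq2 1.42.0, limma-voom with quality weights, only the groups compared, mitochondrial and the 10 most abundant other genes left out, suspect libraries left out, and each library left out. Removal of heterozygotes 1 and 2 at 3 months, and of exercised wild type 1 with heterozygote 4, was chosen after seeing the data.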

Additional observations from a re-analysis of the deposited data

Results flagged for a closer look

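For the 31 tested members in 6 groups, 1 library lay far from the other 4 of its group on the log2 CPM scale in 16 of 186 cases (Dixon's criterion, 0.71 for 5 libraries). Chance alone marks about 1 in 20 such cases, or 9.3 here. The values below are CPM. Applied to CPM itself, the criterion marked 19 cases, 6 of them the same. The 13 others were all high values, among them Igtp in heterozygote 1 at 3 months (285 CPM, the others 8.74 to 33.8) and Gbp2 in exercised wild type 1 (30.7 CPM, the others 6.22 to 10.9). The 16 cases on the log2 CPM scale were as follows. At 3 months Igtp was low in wild type 3 (9.33 CPM, the others 17.0 to 19.4) and Ifi44 in wild type 5 (0 CPM, the others 1.46 to 2.71). In heterozygote 1 Irgm1 was high (90.8 CPM, the others 13.9 to 24) and Trim30a was low (1.96 CPM, the others 3.09 to 3.58). Stat2 (1.51 CPM, the others 8.13 to 15.8) and Oas1a (0 CPM, the others 0.378 to 0.577) were low in heterozygote 4, and Mx2 (0 CPM, the others 1.45 to 3.58) in heterozygote 5.

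At 6 months with regular activity wild type 4 was low for Irf1 (7.33 CPM, the others 10.3 to 11.8), Dhx58 (0.204, the others 0.510 to 0.696) and Gbp2 (5.24, the others 10.2 to 12.9). Exercised wild type 1 was high for Oasl2 (9.44 CPM, the others 3.30 to 4.12), Xaf1 (9.23, the others 3.08 to 3.90) and Parp14 (28.1, the others 12.9 to 14.1). Exercised heterozygote 5 was low for Irf7 (2.81 CPM, the others 4.34 to 5.12) and high for Isg15 (1.33, the others 0 to 0.0691), and exercised heterozygote 4 was low for Igtp (9.05, the others 22.8 to 30.6).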

How the results depend on the processing

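Over 84 results and 1687 alternative values, 1542 kept their direction and side of the threshold or their size, 97 lost a call, 13 gained one, 34 counts or medians moved and 1 reversed: Irgm1 at 3 months, -0.058 without heterozygotes 1 and 2. The cause was not tested for any of these. Members called: genotype at 3 months, 1 by DESeq2; exercise in wild type, 0 with no low-count filter or without the Xist and Y-linked libraries and 2 by DESeq2, limma-voom or its own groups; exercise in heterozygotes, 0 with no filter or without exercised wild type 1 and heterozygote 4, 3 by DESeq2, 4 by limma-voom or its own groups; age in heterozygotes, 2 by its own groups or without heterozygotes 1 and 2. Members above 0: genotype at 3 months, 6 without heterozygotes 1 and 2; genotype with exercise, 20 by limma-voom and 23 without exercised wild type 1 and heterozygote 4; exercise in heterozygotes and the exercise interaction, 4 by limma-voom; the age interaction, 12 by limma-voom, with a median of -0.17, and 0.80 without heterozygotes 1 and 2.

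Leaving out 1 library at a time gave 0 to 1 members called for exercise in either genotype and age in heterozygotes, and 0 to 0 elsewhere. Members above 0 ranged from 9 to 24 for genotype at 3 months (medians -0.11 to 0.43), 26 to 29 at 6 months (0.34 to 0.58) and 8 to 19 with exercise (-0.29 to 0.07). They ranged from 10 to 18 for exercise in wild type (-0.20 to 0.10), 1 to 4 in heterozygotes (-0.78 to -0.53), 16 to 26 for age in wild type (0.01 to 0.32), 19 to 29 in heterozygotes (0.06 to 0.64), 2 to 3 for the exercise interaction (-0.74 to -0.41) and 18 to 26 for the age interaction (0.07 to 0.67). The replicate block changed no count of called members (27 above 0 and a median of 0.47 for genotype at 6 months) and ended the calls of Trim12c (edgeR adjusted p = 0.0649) and Lgals9 (adjusted p = 0.0532) with age. Between groups, libraries of equal replicate number had correlations of deviations from -0.25 to 0.15 over 35 pairs, 3 of them above 0.1. Such correlations cannot show whether equal numbers share an origin. Members with under 1 CPM, such as Isg15, Dhx58 and Oas1a, rest on few reads. The looser motif GAAANNGAA lay in 18 of 25 member promoters (72%) against 9.76%.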
